A study of Rattus norvegicus with 36 samples.

Results

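The thyroids of 4 rats killed 24 h after an injection of 260 kBq iodine-131 were set against the thyroids of 4 mock-treated rats, here called 0 kBq. The 2 groups lay apart in several genes of the circadian clock. *Dbp*, a transcription factor whose level follows the clock, was 5.11-fold lower at 260 kBq, and *Bmal1* and *Cry1*, which belong to the core clock, were 3.22-fold and 2.47-fold higher, with all 4 irradiated rats beyond all 4 controls for each. Most p53 target genes lay slightly higher at 260 kBq and none passed the test. Thyroid, squamous and slow muscle genes varied widely among rats of the same group, lymphoid genes were high in 1 control, and none of their differences passed the test. No probe was called at an adjusted p under 0.01 with a fold change of at least 1.5.

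The 8 arrays were chosen by the activity and time in their sample labels, from 36 arrays in 9 groups of 4, and all 30367 probes that are not controls were compared. The rats were adult male Sprague Dawley rats without disease, given saline into a tail vein, with 260 kBq iodine-131 or without it, and fed standard chow. The thyroid of each rat was excised and its RNA went on 1 Agilent 1-colour array, so that each value is 1 rat. The groups were injected in rising order of activity and the controls last, after the 4700 kBq group, so the treatment and the place in that order cannot be told apart.

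Values are log2 intensities centred on the 75th percentile of each array, so that 0 is the level of a fairly bright probe and 1 unit is a 2-fold change. The percentile lay between 2005 and 3890 on the linear scale of the scanner on the 8 arrays, and 64.2% to 76.9% of the probes were well above background. Over all 36 arrays, arrays of the same group correlated with r between 0.896 and 0.986 over probes, and no 2 arrays held the same values. With 4 arrays a group, the precision of each value is limited by the number of rats.

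Iodine-131 is a beta emitter that the thyroid takes up like stable iodide, through the sodium iodide symporter of the follicular cells. Radiation that breaks DNA activates the transcription factor p53, which raises genes for cell cycle arrest, repair and apoptosis. Most tissues also carry a circadian clock, a loop in which BMAL1 and CLOCK (or NPAS2) switch on the *Per* and *Cry* repressors, the *Nr1d1* and *Nr1d2* repressors of *Bmal1*, and outputs such as *Dbp* and *Tef*. The levels of these genes therefore depend on the hour at which a tissue is collected. A dissected rat thyroid can also include parathyroid, muscle and cartilage of the larynx and trachea, oesophagus and thymus, and the marker genes of these tissues were read on the same arrays.

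Thyroid marker lists were high on 5 of the 8 arrays and lower on the other 3. *Tg*, which encodes thyroglobulin, was at 6.84, 7.26, 6.21 and 3.07 in irradiated rats 1 to 4 and at 6.96, 6.89, 3.18 and 7.37 in control rats 1 to 4. *Pax8*, a transcription factor of follicular cells, was at 3.12, 3.08, -2.30 and -6.12 in the irradiated rats and at 2.97, 1.79, -5.0 and 4.28 in the controls. Both genes stayed well above background on every array, but were low in irradiated rat 4 and control rat 3, and *Pax8* also in irradiated rat 3. The mean of 7 hormone synthesis genes was between 2.32 and 3.64 on 5 arrays and between -2.25 and -1.08 on these 3. The same 3 arrays, irradiated rats 3 and 4 and control rat 3, held the highest squamous epithelium and cartilage signal, with list means of 1.11 to 2.09 and of -1.12 to -0.10. Control rat 2 alone held lymphoid genes, with a mean of 0.81 over 13 genes against -6.89 to -6.03 in the other controls. In such bulk tissue, fewer cells of a type and less RNA per cell cannot be told apart.

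**Figure D1:**
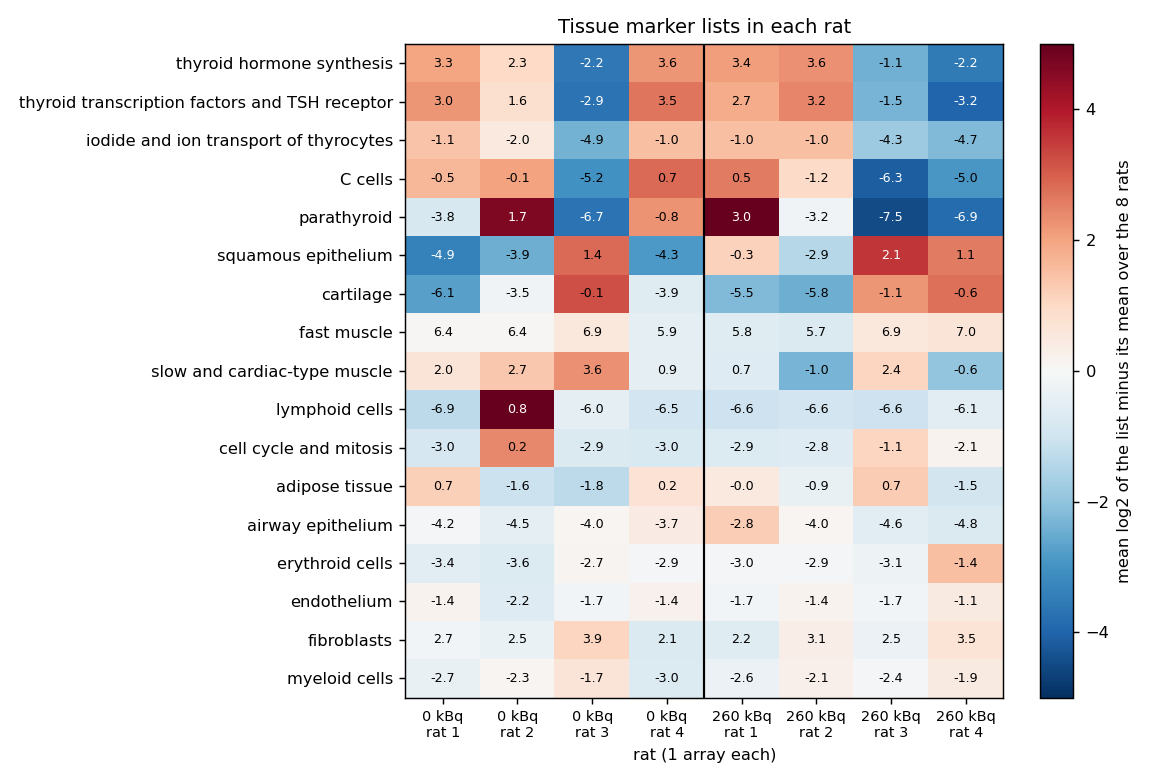
Mean log2 intensity, centred on the 75th percentile, of each marker list in each of the 8 rats, printed in the cells, with colour for the difference from the list's mean over the 8 rats. Thyroid and C cell lists are low in 0 kBq rat 3 and 260 kBq rats 3 and 4, where squamous and cartilage lists are high, and the lymphoid list is high in 0 kBq rat 2 alone, at 0.8.

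Across all probes the 2 groups were close. The median log2 difference was 0.03, and the smallest adjusted p in the limma fit over 36 arrays was 0.0667. At an unadjusted p under 0.05, 239 probes (0.787%) were higher and 102 (0.336%) lower. The higher ones were 70.1% of these, against 56.4% on quantile normalized values, 58.4% with median centring and 83.6% with normexp background, so this split depended on the scaling. In 250 probes (0.823%) all 4 irradiated rats lay above all 4 controls and in 74 (0.244%) all lay below. On quantile normalized values 4 probes passed the adjusted p of 0.01 and the fold change of 1.5. They were the 3 probes of *Dbp*, with log2 differences of -2.48, -2.52 and -2.54 and adjusted p of 0.00636, 0.0043 and 0.00635, and the unnamed probe A_64_P152112, with a difference of 3.17 and adjusted p of 0.0064. On the authors' own matrix the same 4 probes passed. The unnamed probe was at -7.34, -4.55, -3.80 and -7.63 in the irradiated rats and at -9.28, -9.49, -8.03 and -9.49 in the controls. It was well above background on 2 irradiated arrays and on no control array. With lower control values raised to the lowest signal well above background, its level was 3.77-fold higher at 260 kBq. The other irradiated arrays were taken as measured, so this is not a strict bound. A further count was taken over 293 listed genes with a probe, of 337 listed. Of these, 6 lay apart above the controls and 2 below, and 7 were higher and 5 lower at an unadjusted p under 0.05, beside 1.12% of all probes in either direction.

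*Dbp* and *Tef*, outputs of the clock, had lower values at 260 kBq. *Dbp* was at 2.06, 1.81, 2.68 and 3.12 in irradiated rats 1 to 4 and at 4.56, 5.06, 5.76 and 3.71 in control rats 1 to 4. Every irradiated rat lay below every control, and the nearest pair was irradiated rat 4 and control rat 4. The group means were 2.42 ± 0.60 and 4.77 ± 0.86 (SD, n = 4), the log2 difference was -2.35 with a standard error of 0.49, and the adjusted p of limma was 0.239. A two-sided exact permutation test gave 0.0286, the smallest p that 4 against 4 rats allow. The other 2 probes of *Dbp* gave -2.42 and -2.47, again without overlap, each with an adjusted p of 0.0667. *Tef*, a relative of *Dbp*, was at 0.00, -0.54, 1.06 and 1.08 against 1.24, 1.68, 2.21 and 0.84 in the controls. The rats overlapped only through control rat 4, and the difference of -1.09 had an unadjusted p of 0.0323 and an adjusted p of 1 in limma. *Nfil3*, a repressor that acts against *Dbp*, was at -1.45, -2.37, -1.23 and -1.10 against -1.97, -2.68, -2.71 and -2.61, a difference of 0.95 with an unadjusted p of 0.181.

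Of 3 measured activators of the clock, *Bmal1* and *Clock* lay above the controls. *Bmal1* was at 0.17, -0.08, 0.23 and 0.37 in the irradiated rats and at -1.54, -0.88, -2.40 and -1.24 in the controls. The irradiated rats lay close together, the controls were more spread, and no values overlapped. The difference was 1.69 with a standard error of 0.31, an unadjusted p of 8.79e-06 and an adjusted p of 0.0667, and the other probe of the gene gave 1.45, also without overlap. *Clock*, the partner of *Bmal1*, was at -2.44, -2.34, -2.16 and -2.44 against -2.86, -3.91, -3.72 and -2.98. All irradiated rats lay above all controls, and the difference of 1.02 had an unadjusted p of 0.00832 and an adjusted p of 1. The other *Clock* probe gave 0.84 with overlap. *Npas2*, which can replace *Clock*, differed by 0.58 on 1 probe and by 0.19 on another, and its groups overlapped on both.

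The clock acts on *Bmal1* through short elements close to its start. The promoters printed are those of the clock genes whose groups did not overlap, apart from *Cry1*. Each is the 250 bases before the annotated start of transcription, read 5′ to 3′ on the plus strand from RefSeq on GRCr8. Capitals mark matches to an element to which the NR1D1 repressor and its ROR counterparts bind, searched for on both strands after the promoters had been seen. The matches read AAAGTAGGTTA and AAAGTAGGTCA, and any base was allowed at the place where these differ.
Bmal1, chr1:176766078-176766327: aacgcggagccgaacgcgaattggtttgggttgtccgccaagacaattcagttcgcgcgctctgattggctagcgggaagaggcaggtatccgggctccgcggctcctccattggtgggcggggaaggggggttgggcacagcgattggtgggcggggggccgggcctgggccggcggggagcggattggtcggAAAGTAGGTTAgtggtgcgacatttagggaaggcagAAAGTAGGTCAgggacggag
Dbp, chr1:105312006-105312255: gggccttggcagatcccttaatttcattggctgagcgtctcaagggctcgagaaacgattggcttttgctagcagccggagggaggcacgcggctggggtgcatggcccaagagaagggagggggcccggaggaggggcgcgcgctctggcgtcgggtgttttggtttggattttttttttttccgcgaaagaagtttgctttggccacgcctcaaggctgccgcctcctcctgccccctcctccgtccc
Clock, chr14:32262500-32262749: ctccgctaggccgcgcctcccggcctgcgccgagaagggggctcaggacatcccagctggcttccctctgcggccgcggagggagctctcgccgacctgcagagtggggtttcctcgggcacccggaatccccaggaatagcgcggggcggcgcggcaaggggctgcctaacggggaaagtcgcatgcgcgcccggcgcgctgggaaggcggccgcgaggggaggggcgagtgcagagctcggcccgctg
*Bmal1* held 2 matches, which began 56 and 20 bases before the start. *Dbp* and *Clock* held 0, as did the other promoter listed for *Clock*, and *Cry1* was not in the table. The element occurred in 12 of 33469 promoters of the same length (0.0359%). As it was chosen after the promoters had been seen, its matches in *Bmal1* are not a test. The E-box CACGTG, bound by BMAL1 and its partner, and the D-boxes TTATGTAA and TTACGTAA, bound by DBP, were looked for on both strands and had 0 matches in these windows. They occurred in 5.59%, 0.828% and 0.108% of all promoters. Among other clock genes, *Ciart* held 3 E-boxes, *Tef* 1 and the second of the *Nr1d1* promoters 1.

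The repressors of the clock went both ways. *Cry1* was at -0.40, -0.65, -0.32 and -0.44 in the irradiated rats against -2.38, -1.05, -1.05 and -2.55 in the controls. The irradiated rats were alike and all above the controls, whose values fell into a higher and a lower pair. The difference was 1.30 with a standard error of 0.39, an unadjusted p of 0.00216 and an adjusted p of 1. The second cryptochrome gene, *Cry2*, differed by -0.01. *Ciart*, a repressor of BMAL1 and CLOCK, was not well above background on any irradiated array and was so on 3 control arrays, at -5.53, -4.76 and -3.32. With lower irradiated values raised to the lowest signal well above background, its level was 5.13-fold lower at 260 kBq. The fourth control was at -7.75, below the highest irradiated rat at -6.85. It was taken as measured, so the 5.13-fold is not a strict bound. The fitted difference was -2.79, and -0.89 with normexp background, a smaller change than 5.13-fold. The 3 probes of *Per3*, a period gene, gave -0.86, -0.94 and -0.98, and the last 2 of these did not overlap between the groups. *Per2* was at -2.26, -2.34, -3.72 and -4.04 against -2.36, -1.89, -1.54 and -2.37. Irradiated rats 1 and 2 were at the level of the controls and rats 3 and 4 below it, so that the difference of -1.05 became -0.09 without the 3 arrays low in thyroid markers. *Nr1d1*, which represses *Bmal1*, was at -3.82, -3.84, -0.85 and -0.46 against -0.80, -1.17, 0.16 and -1.39. Here rats 1 and 2 were below all controls and rats 3 and 4 among them, and the difference of -1.44 had an unadjusted p of 0.133. *Nr1d2* followed the same pattern with -0.86, and *Per1* and *Bhlhe40* differed by -0.15 and -0.35.

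**Figure D2:**
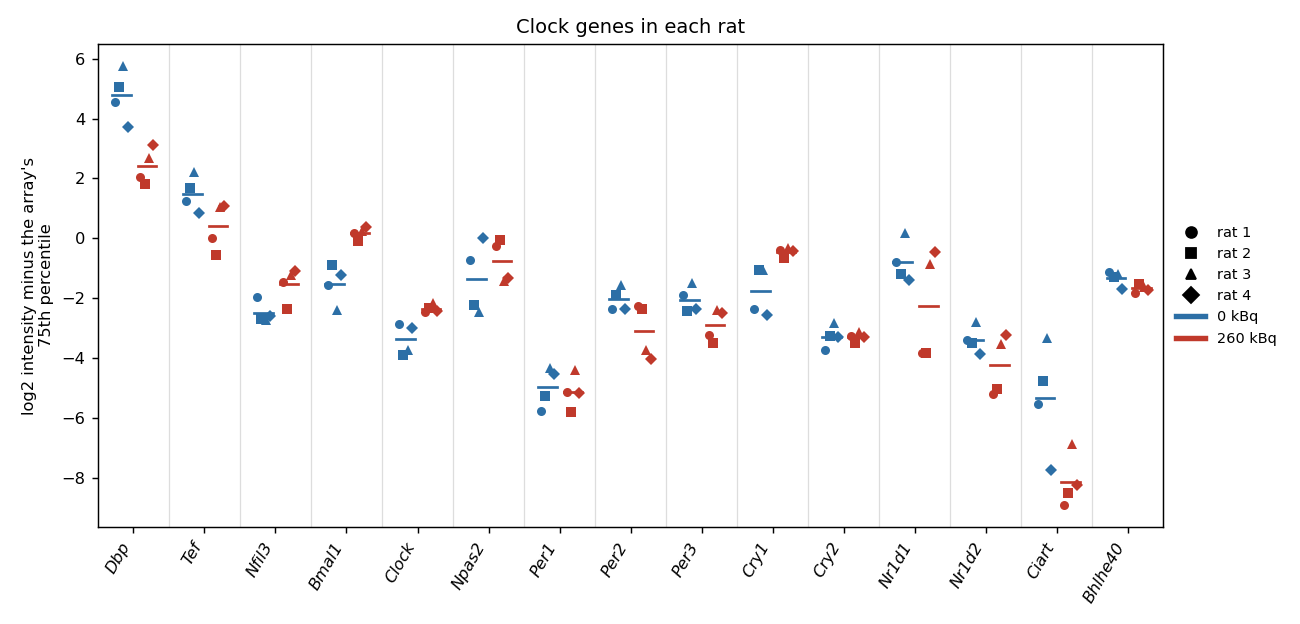
Log2 intensity, centred on the 75th percentile, of 15 clock genes in each rat, controls in blue and 260 kBq in red, with a line at each group mean and a symbol for each rat. The 4 red points lie below the blue ones for Dbp and above them for Bmal1, Clock and Cry1, and Nr1d1 splits the irradiated rats into a low and a high pair.

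Of the 15 clock genes, 3 were higher and 5 lower at an unadjusted p under 0.05, beside 0.787% and 0.336% of all probes, and 4 had groups that did not overlap, beside 1.07% of all probes. The study had reported lower *Dbp* on these same arrays, and the lists were chosen with earlier results known. These counts are therefore not independent evidence. Without the 3 arrays low in thyroid markers the log2 differences were -2.51 for *Dbp*, 1.27 for *Bmal1*, 1.46 for *Cry1* and 0.86 for *Clock*. In that fit 2 clock genes were higher and 6 lower at the same threshold, beside 250 and 81 of 30367 probes. The groups were scanned on 2 days, with 1 irradiated and 3 control arrays on the first day and the reverse on the second. With scan day as a block the 4 differences were -2.39, 1.56, 1.33 and 0.92, and with slide as a block they were -2.43, 1.51, 1.21 and 1.03. Within the first scan day they were -2.79, 1.68, 1.15 and 1.09, and within the second -2.02, 1.72, 1.90 and 0.55. Within slide 1, with 1 irradiated and 2 control arrays, they were -2.68, 1.99, 1.40 and 0.91, and within slide 5, with 1 of each, -1.43, 1.91, 1.94 and 0.42. Since the 4 irradiated rats lie beyond the 4 controls in each of these genes, any subset of the rats gives the same sign, and only the sizes could vary. Whether the hour of collection, which followed the order of injection, had a part in these differences was not tested.

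The same clock genes were read in the neighbouring groups of 170 and 340 kBq. *Dbp* had a mean of 2.14 at 170 kBq, 2.42 at 260 kBq and 3.01 at 340 kBq. *Bmal1* had means of 0.27, 0.17 and 0.25 and *Cry1* of -0.20, -0.45 and -0.51. None of the 15 genes differed between 260 kBq and either neighbour at an unadjusted p under 0.05, and the standard error of these differences was 0.49 for *Dbp* and 0.31 for *Bmal1*. Over all probes, 434 (1.43%) passed that threshold between 260 and 170 kBq and 3166 (10.4%) between 260 and 340 kBq, with 0 called and a smallest adjusted p of 1 and 0.159 in limma.

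Targets of p53 were mostly a little higher at 260 kBq, and no member passed an adjusted p under 0.01. Of 25 measured genes in 2 lists 18 were higher and 7 lower, with a median log2 difference of 0.20 beside 0.03 for all probes, and 2 were higher and 0 lower at an unadjusted p under 0.05, beside 0.787% and 0.336% of all probes. Of all probes 56.0% were higher. On quantile normalized values and on the authors' matrix 0 of the 25 had an unadjusted p under 0.05. *Aen*, an exonuclease that p53 induces during apoptosis, was at 2.16, 2.02, 1.31 and 1.49 in the irradiated rats and at 0.86, 1.03, 1.0 and 0.53 in the controls. All irradiated rats lay above all controls, rats 1 and 2 most clearly. The difference was 0.89 with a standard error of 0.41, an unadjusted p of 0.0372 and an adjusted p of 1. The exact permutation test gave 0.0286, which any 2 groups of 4 without overlap give. In the apoptosis and repair list 1 of 11 genes lay apart above the controls and in the arrest list 0 of 14, beside 0.823% of all probes. The second probe of *Aen* gave 0.76 with overlap and an unadjusted p of 0.144. The p of the first was under 0.05 in 14 of 20 alternative settings. *Rrm2b*, a subunit of ribonucleotide reductase used in repair, was at -6.04, -5.59, -5.54 and -5.52 against -5.98, -6.46, -6.31 and -6.19. It overlapped only through irradiated rat 1, and the difference of 0.56 had an unadjusted p of 0.0455, which was under 0.05 in 6 of 20 alternative settings.

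Among the genes of cell cycle arrest, *Cdkn1a*, the inhibitor of cyclin-dependent kinases known as p21, was at 2.14, 1.89, 3.4 and 3.73 against 0.18, 0.76, 3.25 and 1.61. The rats low in thyroid markers were high in both groups, including control rat 3. The difference was 1.34 with a standard error of 0.82 and an unadjusted p of 0.113, and a second probe of the gene gave 0.06. Without the 3 arrays low in thyroid markers the difference was 1.16. *Mdm2*, which limits p53, differed by 0.14 on 1 probe and by 0.36 on another. *Plk2* differed by 0.89, *Zmat3* by 0.47, *Ccng1*, a cyclin induced by p53, by 0.20 and *Gadd45a*, a gene of growth arrest, by -0.06. In the apoptosis and repair list *Bax*, which opens the mitochondrial membrane, differed by 0.27, *Bbc3* by 0.21 and the repair gene *Xpc* by 0.07. *Fas*, a death receptor, was at -5.45, -1.34, -2.29 and -6.25 in the controls and between -5.33 and -4.42 in the irradiated rats, so control rats 2 and 3 set its difference of -1.20. A second probe of *Fas* gave -0.26 with an unadjusted p of 0.617 in limma, with control rat 2 at -3.25 and control rat 3 at -4.82. *Pmaip1* was not well above background on any of the 8 arrays. Without control rat 3 the median over both lists was 0.11, with 13 genes higher and 12 lower. Without the 3 arrays low in thyroid markers the median over both lists was 0.23, with 20 of 25 genes higher and *Aen* at 1.28.

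**Figure D3:**
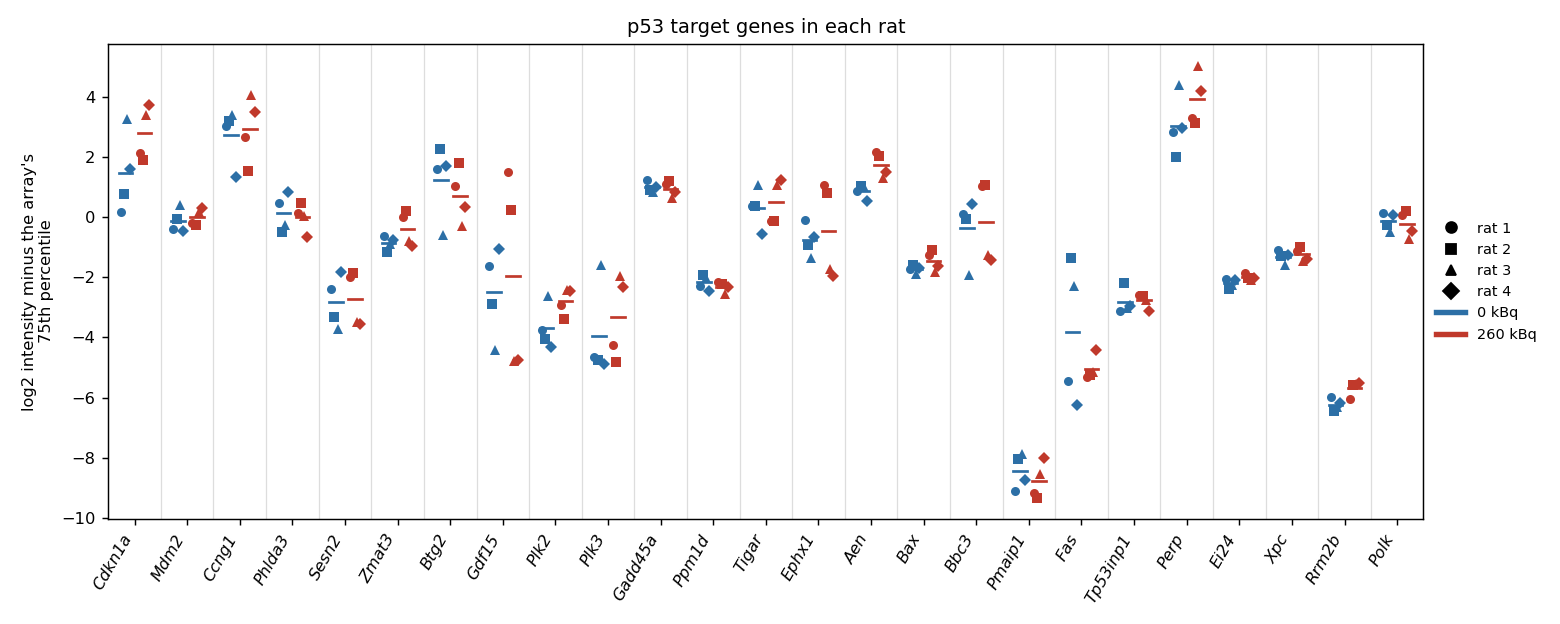
Log2 intensity, centred on the 75th percentile, of 25 p53 target genes in each rat, controls in blue and 260 kBq in red, with a line at each group mean and a symbol for each rat. Aen is the gene whose 4 red points, from 1.31 to 2.16, lie above all blue ones, from 0.53 to 1.03, as in 0.823% of all probes.

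The 18 genes of DNA damage signalling and repair had a median difference of -0.02, with 9 higher and 9 lower and none at an unadjusted p under 0.05. *Apex1*, an endonuclease of base excision repair, and *Xrcc1*, a scaffold protein of single-strand break repair, differed by 0.02 and 0.12. The 16 genes of cell cycle and mitosis had a median of 0.01. *Rrm2*, the ribonucleotide reductase subunit of dividing cells, was at -1.88, -1.10, 1.58 and 0.23 against -1.34, 3.14, -1.26 and -1.84, so that control rat 2 and irradiated rat 3 were high. Without control rat 2 the median of the cell cycle list was 0.80, and without the 3 arrays low in thyroid markers it was -1.03, so its direction depended on these arrays.

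Thyroid genes were lower on average at 260 kBq in the full groups and higher once the 3 arrays low in thyroid markers were left out. All 7 hormone synthesis genes were lower, with a median of -0.80 and none at an unadjusted p under 0.05. Without the 3 arrays low in thyroid markers the list median was 0.51, with 6 of 7 genes higher. Within scan day 1 the median was 2.15 and within scan day 2 it was -2.98, and with slide as a block it was 0.47, so no direction held. *Slc5a5*, the sodium iodide symporter, was at 2.74, 3.33, -5.20 and -5.93 against 2.54, 0.70, -6.93 and 3.54, and *Tshr*, the receptor of thyrotropin, at 2.28, 2.78, -1.75 and -3.05 against 2.63, 0.90, -3.12 and 2.93. Both followed the same rats, and the 7 genes of iodide and ion transport had a median of -0.13, or 0.29 without the 3 arrays. The 6 genes for thyroid transcription factors and that receptor had a median of -1.05, and of 0.35 without the 3 arrays. *Calca*, which encodes calcitonin in C cells, was at 6.64, 6.11, -8.51 and -1.71 against 6.90, 6.27, -2.80 and 6.95, and was again low in the same 3 rats. All 7 C cell genes were lower with a median of -1.40, and of -0.35 without those rats. *Pth*, the parathyroid hormone gene, was at 6.32, -0.93, -8.56 and -6.46 against -6.80, 6.46, -7.81 and 4.04. Parathyroid signal was high in irradiated rat 1 and control rats 2 and 4, which are among the rats rich in thyroid RNA. Irradiated rat 2 and control rat 1, also rich in thyroid RNA, had lower *Pth*, and the 3 arrays low in thyroid markers had the lowest parathyroid list means. The median of 3 parathyroid genes was -1.38, and 0.99 without the 3 arrays low in thyroid markers.

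The genes of the endoplasmic reticulum followed the thyroid genes. *Hspa5*, the main chaperone of that compartment, was at 5.20, 6.0, 3.19 and 2.99 against 4.45, 3.90, 3.1 and 4.93. The list of 12 had a median of 0.25 with 10 genes higher. Without the 3 arrays low in thyroid markers, which leaves 2 irradiated rats against 3 controls, all 12 were higher, with a median of 1.16. In that fit 2 of the 12 were higher at an unadjusted p under 0.05, as were 250 of 30367 probes. Without control rat 3 alone the median was -0.07, with 4 of 12 higher. *Atf6*, a sensor of stress in that compartment outside the list, was at 0.19, 0.49, 0.20 and 0.16 against 0.01, -0.81, -0.34 and -0.66, and lay above the controls in every irradiated rat, with a difference of 0.71 and an unadjusted p of 0.00314. Its second probe gave 0.56 with an unadjusted p of 0.0646.

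Squamous epithelium genes had the greatest median difference of the 30 lists, and no member passed an unadjusted p under 0.05. All 18 measured genes were higher at 260 kBq, with a median of 2.85 on the log2 scale. *Krt13*, a keratin of the oesophageal lining, was at 3.42, -0.32, 6.28 and 5.19 in the irradiated rats and at -4.21, -5.71, 5.90 and -4.29 in the controls. Control rat 3 lay among the irradiated rats and the other 3 controls below them, and the difference of 5.72 had a standard error of 3.81. *Krt4* and *Sprr3*, a keratin and a cornified envelope protein, had the same pattern, with differences of 5.35 and 4.88. Without control rat 3, the control high in these genes, the list median was 4.24 and 5 genes were higher at an unadjusted p under 0.05, as were 455 of 30367 probes. With array weights, which gave that rat the lowest weight of the 8, the median was 4.86 and 12 genes passed, as did 1441 higher probes. Without all 3 arrays low in thyroid markers the median was 2.76, with 15 of 18 genes higher. The part of this tissue in other differences was not tested. The study had picked 6 of these genes and 8 of the muscle genes that follow on these samples, so their direction is not independent evidence.

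Slow muscle genes went the other way. Of 12 genes of slow and cardiac-type muscle 11 were lower, with a median of -2.54. *Myh7*, the slow myosin heavy chain, was at 2.24, 0.02, 3.13 and -1.29 against 4.02, 4.57, 4.63 and 1.59 in the controls, and *Myl2*, its regulatory light chain, at 0.45, -1.81, 1.25 and -2.31 against 2.70, 3.03, 2.97 and 0.32. In both, irradiated rats 2 and 4 were lowest and control rat 4 was within the irradiated range. The unadjusted p was 0.279 and 0.178. *Pln*, which restrains the calcium pump of slow muscle, was at -1.14, -0.53, -1.02 and -1.01 against -1.41, -1.98, -1.28 and -1.29. It was the member that lay apart, with a difference of 0.57, as 0.823% of all probes lay apart above the controls. Of the 12 genes 0 had an unadjusted p under 0.05 in limma, *Pln* included. Fast muscle genes were bright in all rats: *Myh4*, a fast myosin heavy chain, was between 5.53 and 7.48 in the irradiated rats and between 5.04 and 7.01 in the controls, and the median of 14 genes was 0.03. With slide as a block the slow list had a median of -4.03 and the fast list of -1.29, and with scan day as a block -3.08 and -0.66. The slow list was lower in both scan days, at -1.56 and -2.93, and had a median of -2.31 without the 3 arrays low in thyroid markers.

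Lymphoid genes were lower at 260 kBq through 1 control. All 13 were lower, with a median of -2.13, and without control rat 2 the median was -0.10. *Rag1*, a recombinase of developing lymphocytes, was at 2.86 in control rat 2 and between -9.24 and -7.54 in the other controls, and was not well above background on any irradiated array. *Cd3d*, a subunit of the T cell receptor complex, was at 5.25 in that rat and between -3.61 and -1.83 in the other 7 rats. Of 6 erythroid genes, 2 were not well above background on any of the 8 arrays and the other 4 were higher by 0.16 to 1.52. *Slc4a1*, the anion exchanger of red cells, was at -2.24, -1.96, -4.15 and -2.28 against -4.21, -4.67, -4.20 and -3.64. Irradiated rat 3 was among the controls, and the difference of 1.52 had an unadjusted p of 0.0334. *Hbb*, a globin, differed by 0.48.

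Few genes of the other lists stood apart. *Tekt1*, a gene of ciliary microtubules, was at -4.93, -5.64, -4.94 and -4.38 against -5.88, -6.04, -6.14 and -5.81, and lay above the controls in every irradiated rat, with a difference of 1.0 and an unadjusted p of 0.0173. *Foxj1*, which defines ciliated cells, was well above background on 1 irradiated and 2 control arrays. *Klf9*, a transcription factor that responds to glucocorticoid and to the clock, was at 1.18, 1.43, 1.44 and 1.49 against 1.71, 1.73, 2.26 and 1.63, below the controls in every irradiated rat, with a difference of -0.45 and an unadjusted p of 0.149. The glucocorticoid-responsive list as a whole had a median of -0.22, which moved to -0.72 without the 3 arrays low in thyroid markers. Of 11 genes of redox defence, 1 was not well above background on any array and the other 10 were higher by 0.04 to 0.62, with none at an unadjusted p under 0.05. With scan day or slide as a block 1 of the 11 was lower. The median of the 9 cartilage genes was 0.09 and rested on single rats: it was -1.57 without the 3 arrays low in thyroid markers, 1.46 without control rat 3 and 2.18 with array weights, and within the 2 scan days it was -3.49 and 4.20. Airway, adipose, endothelial, fibroblast, myeloid, chaperone, immediate early, interferon and cholesterol lists had medians between -0.22 and 0.18, and between -0.25 and 0.25 without those 3 arrays.

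**Figure D4:**
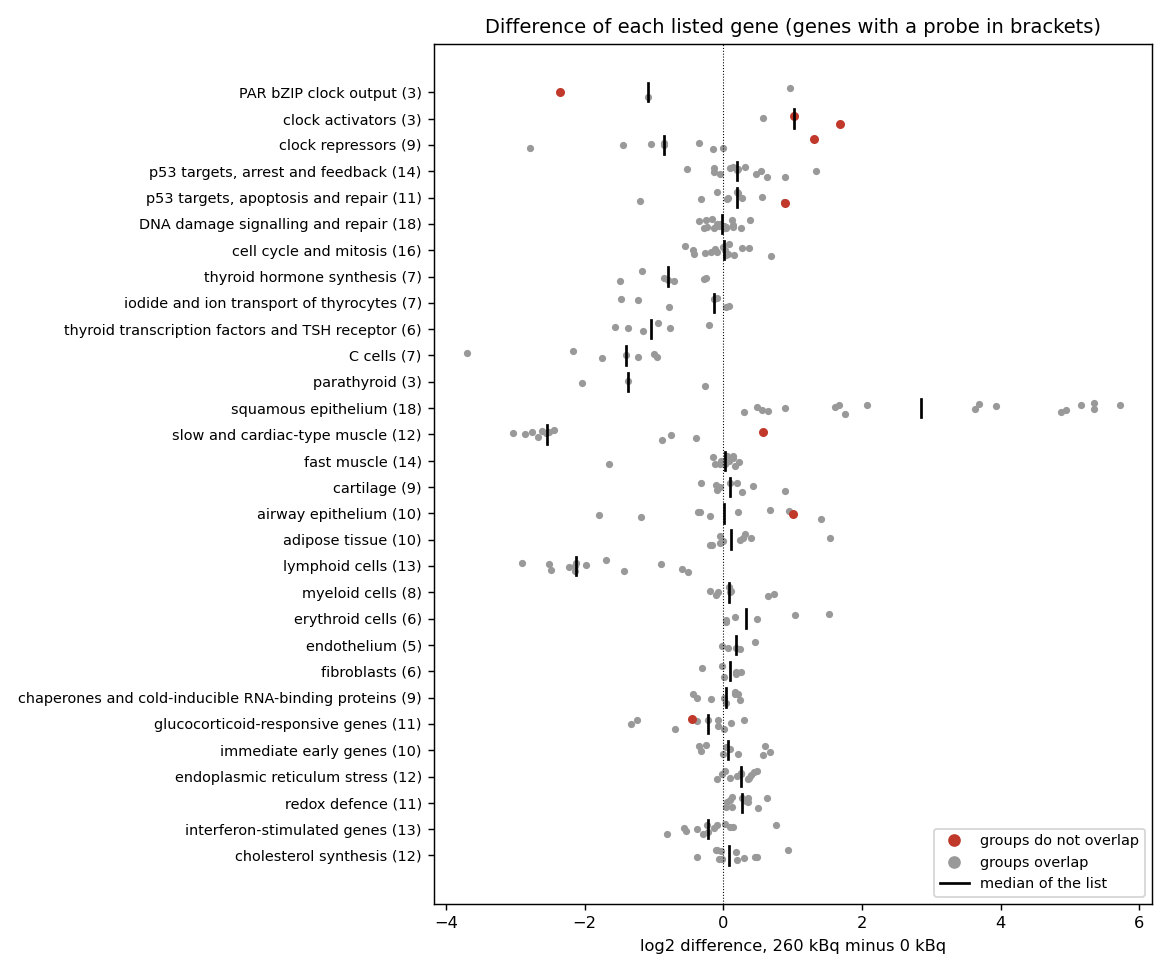
Log2 difference between 260 kBq and 0 kBq of each listed gene, by list, with a black bar at the list's median and red points for genes whose groups do not overlap. The squamous list lies to the right with a median of 2.85, the slow muscle and lymphoid lists to the left with medians of -2.54 and -2.13, and the 8 red points include 4 clock genes.

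Over all genes with a symbol, the 10 higher and 10 lower genes with the smallest p and a fold change of at least 1.5 were taken. These genes were selected for that difference, and their values describe it. The higher ones were *Bmal1*, *Thrap3*, *Acin1*, *Hnrnph2*, *Tle1*, *Usp36*, *Cry1*, *Atf6*, *Dnajc17* and *Spart*, with differences of 0.59 to 1.69. *Thrap3*, *Acin1* and *Hnrnph2* encode proteins that take part in the processing of RNA. *Thrap3* was at -0.24, -0.02, 0.10 and 0.04 against -0.36, -0.52, -0.57 and -1.07, a narrow gap without overlap, and a second probe of the gene gave -0.06. *Acin1* was at -2.10, -2.06, -1.64 and -1.75 against -2.45, -2.44, -2.32 and -2.77, and its second probe gave 0.34 with an unadjusted p of 0.0261. *Tle1*, a corepressor, was at -0.86, -0.52, -0.44 and -0.40 against -1.20, -2.13, -1.33 and -1.25, also without overlap. The probes of *Dnajc17* disagreed, with 0.73 on the probe that was taken and 0.00 and 0.02 on 2 others. *Spart* gave 0.79 with overlap on the probe that was taken. Its other probes gave 0.33 and 0.27, also with overlap and with unadjusted p of 0.196 and 0.199 in limma.

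The 9 lower ones described here were *Dbp*, *Cebpd*, *Per3*, *Pced1b*, *Or10j3b*, *Or52n4e*, *Gpr146*, *Tef* and *Rnf126*, with differences of -2.42 to -0.97. *Cebpd*, a transcription factor of the acute response, was at 1.60, 2.39, 1.34 and 1.77 against 3.5, 2.57, 1.99 and 3.77. The groups overlapped only through control rat 3. *Pced1b* was at -4.09, -4.03, -3.84 and -3.98 against -2.72, -3.03, -2.22 and -2.33, with no overlap and a difference of -1.41. Against 170 kBq it was lower by 1.17 on the log2 scale, with an unadjusted p of 0.0194 and an adjusted p of 1 in limma. It was also lower than at 340 kBq, with an unadjusted p of 0.0422. *Or10j3b* differed from 170 kBq by -1.81, with an unadjusted p of 0.029. No other of the 19 genes passed an unadjusted p under 0.05 against either group. The same irradiated values had been selected for their difference from the controls, so these differences are not separate evidence. *Or10j3b* and *Or52n4e*, olfactory receptor genes, were dim, and *Or52n4e* was well above background on 2 of 4 irradiated arrays, while its other 2 probes were not so on any of the 8 arrays. These 19 genes had an adjusted p of 1 apart from *Bmal1* and *Dbp*, at 0.0667.

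**Figure D5:**
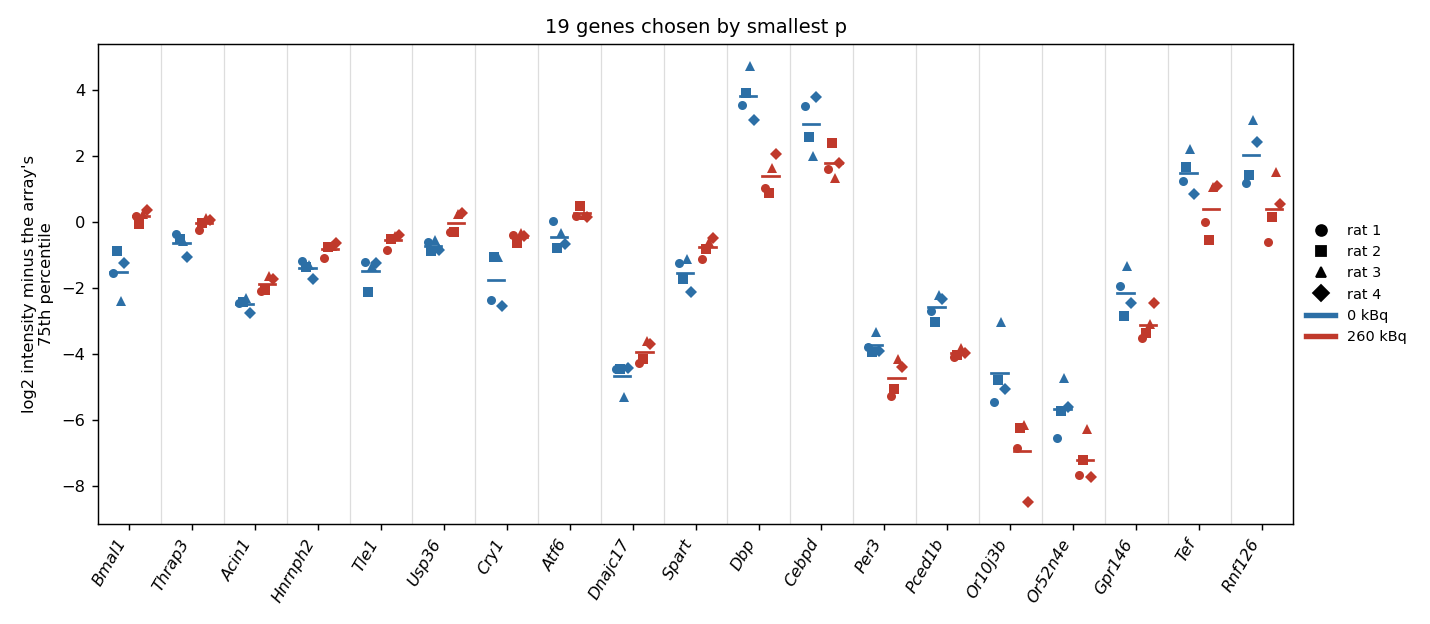
Log2 intensity, centred on the 75th percentile, in each rat of 10 higher and 9 lower genes with the smallest p, controls in blue and 260 kBq in red, with a line at each group mean and a symbol for each rat. Of these 19 genes, 13 have groups that do not overlap, and the widest gaps are those of Bmal1, Dbp and Pced1b.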

How the data were processed

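RNA of 36 rat thyroids was hybridized to Agilent 1-colour arrays, 1 array per animal as the labels number them. The authors deposited the scanner output, in which Feature Extraction 10.7.3.1 had subtracted the local background from each spot's intensity, and a matrix of quantile normalized intensities on a linear scale, of which log2 was taken here. The submitters' processing notes name Partek. Here, control spots and outlier spots (384 to 551 on the 8 arrays) were left out, log2 values were centred on the 75th percentile of each array, and spots were averaged per probe. Accessions matched to RefSeq named 17998 of 30367 probes (59.3%). Of several probes of a listed gene, the one with the highest mean over the 36 arrays was used.

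The limma package (3.58.1, in R 4.3.3, with the data.table package, 1.17.8) estimated 1 mean for each of the 9 groups, with Benjamini-Hochberg adjustment over all probes. Calls needed an adjusted p under 0.01 and a fold change of 1.5 or more, the limits of the study, which names no test. Exact permutation tests over 70 splits were two-sided. A bound on a fold change used, on each array of the dim group, the higher of the gene's own value and the lowest signal well above background. The brighter group kept its own values, so the figure is not a strict bound where an array of that group was dim. The fit was tested on simulated data. Promoters were searched with Python 3.11.15 and plots drawn with matplotlib 3.10.9.

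The members and the 30 gene lists were chosen with earlier results of these data known. Named were all clock and p53 genes, fixed tissue markers, in other lists the members at an unadjusted p under 0.05 or without overlap (otherwise the 2 with the highest mean), and the 10 higher and 10 lower genes with the smallest p, a fold change of at least 1.5 and all 4 arrays of a group well above background. Any probe called was named as well. The alternatives were quantile normalization, median centring, normexp background on median spot intensities, the authors' matrix, a filter on dim probes, slide, scan day or rat number as a block, the 8 arrays alone, eBayes with trend and robust, array weights, other limits and each rat left out. The fit without 3 arrays was added after the data had been seen. Results of 2 genes are not reported here. Hormone levels and PCR were not analysed here.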

Additional observations from a re-analysis of the deposited data

Results flagged for a closer look

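Of 330 sets of 4 rats, 26 held a rat whose gap to the nearest other rat, divided by the range of the 4, was above Dixon's critical value for sets of that size. Chance alone gives about 1 in 20 of the sets checked. The 330 include sets not well above background on any array, which were not checked, and many sets follow the same rats. The 26 flags can therefore not be set against that rate. All values are on the log2 scale.

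Control rat 3 was low in thyroid and C cell genes, with *Tg* at 3.18 and *Calca* at -2.8 where the nearest other controls were at 6.89 and 6.27. It was also low for *Casr*, the calcium-sensing receptor, at -4.61, and *Dnajc17* at -5.31. It was high for the squamous genes *Krt13* at 5.9 and *Cnfn* at 4.69, with a squamous list mean of 1.38, and for *Klf9* at 2.26 and *Plk3* at -1.58.

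Control rat 2 was high in lymphoid and cell cycle genes, with *Rag1* at 2.86, *Cd3e* at 0.34, *Rrm2* at 3.14 and *Mcm3*, a replication factor, at 1.94. Its lymphoid mean was 0.81 and its cell cycle mean 0.18. *Tp53inp1* was high there at -2.18, and *Tle1* at -2.13 and *Sod1* at 4.69 were low.

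Control rat 1 was high for *Nfil3* at -1.97 and control rat 4 low for *Myl2* at 0.32. Among the irradiated rats, rat 1 was high for *Gcm2*, a parathyroid factor, at -0.94 and low for *Rrm2b* at -6.04, rat 2 was high for *Atf6* at 0.49, and rat 3 was low for *Slc4a1* at -4.15. Irradiated rat 4 was high for the lymphoid mean at -6.14 and for the erythroid mean at -1.37.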

How the results depend on the processing

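With 4 rats a group and a median standard error of 0.46 on the log2 scale, small differences could not be detected, and tissue makeup varied within both groups. Group and order of injection cannot be told apart. The count of called probes was 0 at first and 4 with quantile normalization and 4 on the authors' matrix. It was 0 under each other setting. Probes at an unadjusted p under 0.05 numbered 341, and 226 with normexp background, 209 with the filter on dim probes, which tests fewer probes, and 2037 with array weights. Leaving out 1 rat gave 280 (without irradiated rat 4) to 579 (without control rat 3). Probes without overlap numbered 324, and 519 (without irradiated rat 2) to 1298 (without control rat 3) with 1 rat left out, and 5892 without the 3 arrays low in thyroid markers. Fewer rats make such gaps more frequent by construction. Higher probes were 58.5% of those at an unadjusted p under 0.05 with slide as a block, 52.4% with scan day, 81.8% with the filter on dim probes, 56.9% on the authors' matrix, and between 47.2% (without control rat 2) and 78.6% (without control rat 3) with 1 rat left out. Over 20 settings, the log2 difference ran from -2.71 to -2.02 for *Dbp* and from 1.27 to 1.90 for *Bmal1*, with adjusted p in limma of 0.00554 to 1 and 0.0442 to 1. In 2730 comparisons over 137 probes of named genes, 75 lost an unadjusted p under 0.05 and 34 gained it. A further 263 changed sign in probes that did not reach it in either setting. List medians changed sign in 93 of 600 comparisons. With array weights or without control rat 3 the median over all probes was 0.15 or 0.13. Rat numbers did not pair the rats: same-numbered deviations correlated at -0.56 to 0.69, and 2 of 8 rats correlated best with their own number. With rat number as a replicate block, 0 probes were called and 329 had an unadjusted p under 0.05. No difference from 170 or 340 kBq was called in any setting that fitted these groups.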
